A study of Mus musculus with 8 samples.

Results

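Axon guidance ligands and receptors were followed across lists of m6A peaks from denervated and innervated mouse muscle. They were chosen by name alone, as all genes of the semaphorin, plexin, neuropilin, ephrin, Eph receptor, netrin, UNC5, Slit and Robo families with a peak in at least 1 list. Of 5987 gene names in the lists, 34 met the rule, with 215 of 38927 peaks. The peaks came from MeRIP-seq, in which RNA bearing N6-methyladenosine (m6A) is captured with an antibody and sequenced next to the uncaptured input. The muscle was gastrocnemius, the large calf muscle, of male C57BL/6 mice aged 10 weeks, and the series holds 8 libraries. The 2 denervated replicates were taken 14 days after denervation, and the 2 innervated replicates came from muscle of the opposite leg, so that the controls belong to animals that also carried a denervated muscle. The labels do not say whether the replicates are separate animals, so the spread between them may be technical.

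Semaphorins act on plexins, and the secreted class 3 semaphorins do so mostly through neuropilins as co-receptors. Ephrins are membrane-bound ligands of the Eph receptor tyrosine kinases and signal in both directions between touching cells. Netrins act through DCC and UNC5 receptors, and Slits through Robo receptors. These families include cues that steer growing axons, and several also pattern blood vessels. In muscle they have been studied in motor axon targeting, at the neuromuscular junction and in vessels.

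The lists held 9327 to 10300 peaks each, in 4153 to 4647 genes. Read counts were not analysed here, so depth and transcript levels are unknown, and the lack of a peak does not show that a transcript was unmethylated. In bulk muscle, fewer cells of a type and less RNA per cell cannot be told apart, and a peak call depends on both. Of 10 fibre markers, among them Ttn, Acta1 and Myh4, 0 had a peak, so the lists could not be used to check the tissue label. Of markers of other cells, 3 of 9 endothelial genes (Cdh5, Kdr, Erg), 3 of 9 fibroblast genes (Pdgfra, Col1a2, Pi16), 2 of 6 pericyte genes, 1 of 11 Schwann cell genes and 1 of 8 macrophage genes were called in all 4 lists. Of 10 neuron markers 0 were, and of 6 satellite cell markers 0. Across the 8 marker lists 1 gene was group-specific, the Schwann cell receptor gene Ngfr, with 3 and 2 peaks in the denervated lists and 0 and 0 in the innervated lists. Over all genes with a peak, 3.42% were called in both denervated lists alone and 3.14% in both innervated lists alone. No more was read from the call of Ngfr. The part of other cell types in the calls below was not tested.

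A peak of Epha4, a receptor for both ephrin classes, lay on the first bases of an annotated transcript and was the only member peak that covered the first 50 transcript bases in full in any of the RefSeq start sequences used here (build GRCm38.p6, the assembly of mm10). It was called in denervated replicate 2 alone, at chr1:77514988-77515088 on the minus strand. The first 30 bases of that transcript, chr1:77515059-77515088, are shown 5′ to 3′ because they mark where the peak begins; capitals mark bases under the peak.
Epha4 start: TAAGCATTTATTCCACTGGGATAGAAGCGG
The letters AAC and GAC, which form the core of the preferred m6A sequence, were searched on the transcript strand in the first 50 bases. Neither was found in this window of Epha4, which says only that these letters are not in it, whereas 68.6% of the 32851 RefSeq start windows of that length held at least 1 of them. By their letters, AAC and GAC cannot overlap each other. A peak of Efna1 in the same list covered 10 of the 50 bases of a start window of that gene.

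Calls of guidance genes recurred, and none separated denervated from innervated muscle at the level of the gene. Of the 34 genes, 19 (55.9%) had a peak in all 4 lists, against 48.8% of all genes. A further 6 genes were in 3 lists, 3 in 2 lists and 6 in 1 list. Denervated only means here a peak in both lists of denervated muscle and in no list of innervated muscle, and innervated only means the reverse. By this definition 0 members were denervated only, where 3.42% of all genes were, and 0 were innervated only, where 3.14% were. In 34 genes these shares amount to about a single gene, so the absence of such calls is close to the background. When a group was judged by its single remaining library, denervated-only genes numbered 3 without innervated 2 (Sema3d, Sema4b, Plxnd1), 3 without denervated 1 (Sema4d, Epha5, Ephb2), 1 without denervated 2 (Efnb1) and 0 without innervated 1. Over all genes the same settings gave 9.15%, 8.21%, 10.0% and 6.09%. Innervated-only genes numbered 1 without innervated 1 (Ntn4), 1 without innervated 2 (Ephb1), 3 without denervated 2 (Sema3a, Sema3g, Sema7a) and 0 without denervated 1, where 9.45%, 6.65%, 6.89% and 9.13% of all genes were so called. With 31 to 33 members in the remaining lists, 3 genes are close to these shares.

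**Figure D1:**
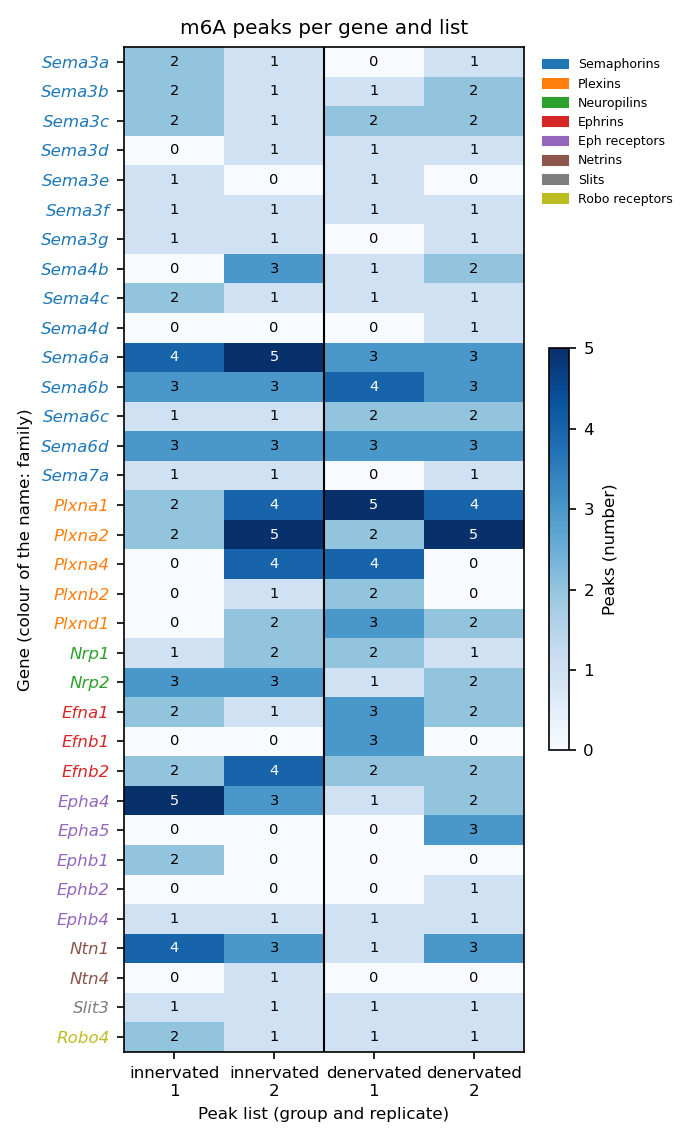
Number of m6A peaks (shade and digit) of each of the 34 genes (rows, names coloured by family) in each peak list (columns; the line separates the groups). In 19 rows every list has a peak, and in no row do the zeros fill both lists of a group while both lists of the other group have peaks.

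Differences between groups in the amount called lay within the spread between replicates. Member genes numbered 24 and 28 in the innervated lists and 26 and 28 in the denervated lists, and member peaks 50 and 59 against 52 and 54. The mean number of peaks was 54.5 ± 6.36 (SD, n = 2) in innervated and 53.0 ± 1.41 (SD, n = 2) in denervated muscle, and the difference of -1.5 was smaller than the spread between replicates (two-sided exact permutation test, p = 1). As a share of each list's peaks the members held 0.554 ± 0.0260% and 0.550 ± 0.0271% (SD, n = 2; exact permutation p = 0.667). The median member peak was 275 ± 34.3 bases long in innervated and 287 ± 16.6 bases in denervated lists (SD, n = 2; exact permutation p = 1). With 2 libraries against 2 the test cannot go below 0.333, and the adjusted p over the 5 differences tested, these and those of genes called and of place, was 1 for each.

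**Figure D2:**
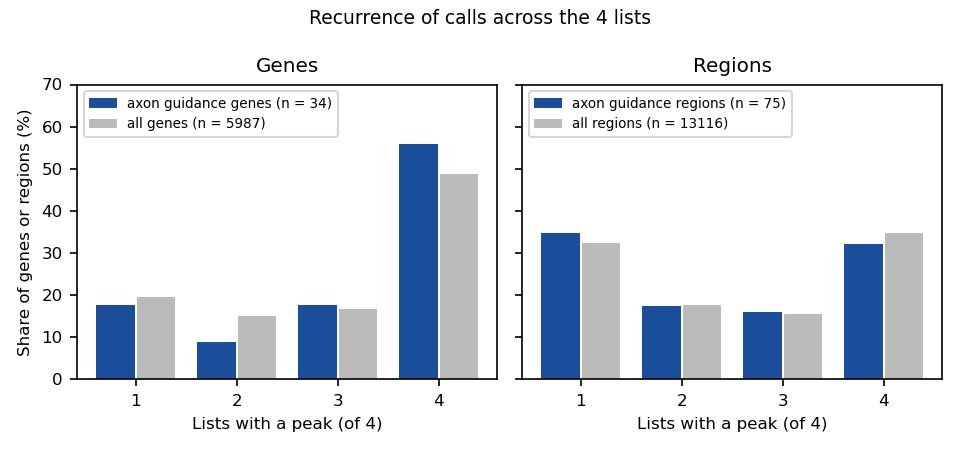
Share of genes (left) and of regions (right) found in 1, 2, 3 or 4 of the peak lists, for the guidance families (blue) and for all genes or regions (grey). The guidance genes stand at 55.9% in 4 lists against 48.8%, and their regions at 32.0% against 34.6%.

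Peaks of the same strand were linked into regions where they had 1 or more bases in common, introns not counted, which gave 75 regions in the 34 genes. The centre of a region means here the mean of the centres of its peaks, which need not be the middle of its outer bounds. Of these, 24 (32.0%) were held by all 4 lists, against 34.6% of all 13116 regions, and 26 (34.7%) by a single list, against 32.3%. A member had 2.21 regions on average, beside 2.20 over all genes. Of the 34, 14 (41.2%) had a single region, beside 43.5% of all genes. Denervated only was 1 region, in Plxna1, or 1.33% beside 3.67% of all regions. Innervated only were 3 regions, 2 in Epha4 and 1 in Nrp2, or 4% beside 4.20% of all regions. Judged by 1 library in a group, denervated-only regions numbered 1 when innervated 1 was left out, beside 6.41% of all regions in that setting. They numbered 7 when innervated 2 was left out, 8 when denervated 1 was and 7 when denervated 2 was, beside 9.09%, 14.0% and 12.7%. Innervated-only regions numbered 11 when innervated 1 was left out, 10 when innervated 2 was, 4 when denervated 1 was and 8 when denervated 2 was, beside 15.3%, 11.1%, 9.72% and 8.58% of all regions. The members held 70 to 72 regions in these settings. All 3 genes with group-specific regions had peaks in every list. The other 31 genes had none.

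Epha4 had the most regions of the members and 2 of the 3 innervated-only regions. It had 5 and 3 peaks in the innervated lists and 1 and 2 in the denervated lists, covering 1051 and 701 bases against 250 and 301, so that the groups did not overlap. Over all genes, 14.8% had more called bases in both innervated lists than in both denervated lists, so this is no rare pattern. None of its 6 regions was in all 4 lists, although the gene was. The innervated-only regions lay at chr1:77369228-77369377 and chr1:77373661-77373811, on the minus strand, centred 2121 and 6554 bases before the 3′ end of the gene span. The first stood 3636 bases from the nearest peak of a denervated list and was the only group-specific member region with no peak of the other group within 500 bases. The second stood 397 bases from a peak of denervated 1, which belongs to a region at chr1:77373014-77373462 that both innervated lists also held. Denervated 2 had no peak in this 3′ part: its peaks lay at chr1:77506929-77507128, a region shared with innervated 1, and at the transcript start shown above.

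Nrp2 encodes a neuropilin that serves class 3 semaphorins and vascular endothelial growth factors. It had 3 and 3 peaks in the innervated lists and 1 and 2 in the denervated lists, covering 650 and 1050 bases against 350 and 400, again without overlap between groups. Its region near the 3′ end, chr1:62815553-62816002 on the plus strand, was held by all 4 lists. Close to the 5′ end, a region at chr1:62703865-62704214 was held by both innervated lists and denervated 2, with 200 and 350 bases against 0 and 200. The innervated-only region at chr1:62703417-62703765, centred 262 bases after the 5′ end, stood 199 bases from that peak of denervated 2. Joining peaks of a list within 100 bases ended this call.

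Plxna1 encodes a plexin that pairs with neuropilins to receive class 3 semaphorins. It had 2 and 4 peaks in the innervated lists and 5 and 4 in the denervated lists, and covered 849 and 1200 bases against 1251 and 1099, so that the groups overlapped. Near the 3′ end its peaks stood side by side in 4 short regions on the minus strand. The denervated-only region, chr6:89318309-89318508, with 101 and 200 called bases, was the last of them towards the 3′ end and stood 199 bases from a peak of innervated 2. The region before it was held by 3 lists, all except innervated 1, the one before that, chr6:89318957-89319206, by all 4, and the first by innervated 2 and denervated 1. A spliced region near the 5′ end, from 89357127 to 89362563 on chromosome 6, was also in all 4 lists. Its best peaks ranked higher within the innervated lists, as described with the scores below.

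**Figure D3:**
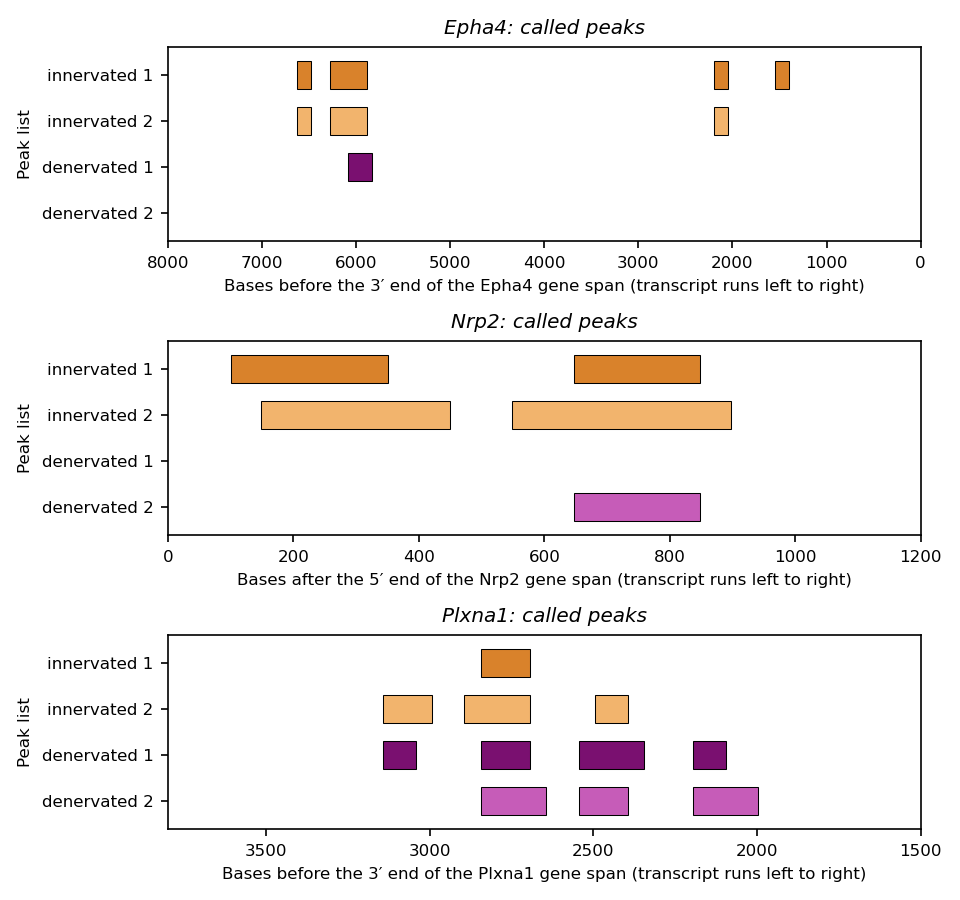
Called peaks (boxes) of Epha4, Nrp2 and Plxna1 in each list, placed by their distance in bases from the 3′ end (Epha4, Plxna1) or the 5′ end (Nrp2) of the gene span; parts of the genes outside the axis and spliced peaks are not drawn. In Epha4 the boxes 2121 bases before the end occur in both innervated lists, and in Nrp2 and Plxna1 the group-specific boxes stand 199 bases from a box of the other group.

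Called bases, a graded measure added after the lists had been seen, leaned to the innervated side in more members than to the denervated side. In 8 of the 34 genes both innervated lists had more called bases than both denervated lists (23.5%, beside 14.8% of all genes). Besides Epha4 and Nrp2 these were the semaphorins Sema3c, Sema3f, Sema3g, Sema6c and Sema7a and the netrin Ntn1. The opposite held for 1 gene, Sema4b, a membrane semaphorin (2.94%, beside 13.8% of all genes), with 0 and 552 bases in the innervated and 800 and 701 in the denervated lists. Sema6c had 1296 and 1396 bases in the innervated and 998 and 1098 in the denervated lists, and Sema3f 650 and 650 against 500 and 600. Sema3g had 399 and 400 against 0 and 350, and Sema7a 398 and 596 against 0 and 348; in both, denervated 1 was the list without a peak. Among the 24 regions in all 4 lists the counts were 4 (Plxna2, Sema3c, Sema3f, Sema6c), beside 13.3% of all such regions, and 1 (Sema6a), beside 14.8%. These counts depended on single libraries. On the innervated side they came to 18 and 11 genes without innervated 1 or innervated 2, beside 37.4% and 25.5% of all genes. Without denervated 1 or denervated 2 they came to 8 and 14, beside 24.7% and 27.0%. On the denervated side they came to 3 and 8 without innervated 1 or innervated 2, beside 19.4% and 30.1%. Without denervated 1 or denervated 2 they came to 5 and 7, beside 34.9% and 30.4%. The members numbered 31 without denervated 2 and 33 in each other setting. On the innervated side the 8 genes without denervated 1 are close to the share of all genes, and the other counts lie above it. On the denervated side each count lies below the share of all genes. The settings have lists in common, and no test was run on these counts.

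Semaphorins were the family with the most genes called. Of 20 in RefSeq, 15 had a peak, and 8 had one in all 4 lists: the secreted Sema3b, Sema3c and Sema3f and the membrane-bound Sema4c, Sema6a, Sema6b, Sema6c and Sema6d. The class 6 genes encode transmembrane ligands of class A plexins, and among semaphorins Sema6a, Sema6b and Sema6d carried the most peaks. Sema6a had 4, 5, 3 and 3 peaks in innervated 1, innervated 2, denervated 1 and denervated 2, Sema6b 3, 3, 4 and 3, and Sema6d 3, 3, 3 and 3. The other class 6 gene, Sema6c, had fewer, with 1, 1, 2 and 2. Sema6a alone among all members had 3 regions in all 4 lists; the longest, from 47247702 to 47249500 on chromosome 18, held 1451 and 1501 called bases in the innervated and 1600 and 1799 in the denervated lists. Sema3a, a secreted repellent that has been studied in terminal Schwann cells and satellite cells of injured muscle, had 2 and 1 peaks in the innervated lists and 0 and 1 in the denervated lists, all in 1 region at chr5:13599243-13600141. Sema3g and Sema7a lacked a peak in the same library, denervated 1. Sema3d, with 0 and 1 against 1 and 1 peaks, and Sema4b, with 0 and 3 against 1 and 2, lacked one in innervated 1. Sema3e, a ligand of plexin D1, was called in innervated 1 and denervated 1, and Sema4d, a ligand of class B plexins, in denervated 2 alone. Sema4a, Sema4f, Sema4g, Sema5a and Sema5b had no peak.

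Of the receptors of semaphorins, both neuropilins were called in all 4 lists, and 5 of 9 plexins had a peak. Plexins had 3.6 regions per called gene, but 3 of their 18 regions were in all 4 lists. Their peaks numbered 4 and 16 in the innervated and 16 and 11 in the denervated lists, so that innervated 1 stood apart from the other 3 lists. Plxna2, a receptor of class 3 and class 6 semaphorins, had 2 and 5 peaks in the innervated and 2 and 5 in the denervated lists, and its shared region near the 5′ end spanned 24187 bases of genome across an intron with 899 called bases. Plxna4, with 0 and 4 against 4 and 0 peaks, and Plxnb2, with 0 and 1 against 2 and 0, were called in innervated 2 and denervated 1, that is, once in each group. In Plxna4 each of 3 regions, at the 5′ end, within the gene and at the 3′ end, was held by these libraries and no other. Plxnd1, an endothelial plexin, had 0 and 2 peaks against 3 and 2, all within the last 994 bases of the gene span by region centre. Nrp1, the other neuropilin, had 1 and 2 against 2 and 1 peaks with 897 to 1146 called bases per list. Plxna3, Plxnb1, Plxnb3 and Plxnc1 had no peak.

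Ephrins and Eph receptors were called less widely, with 3 of 8 and 5 of 14 genes; no test compared the families. Efnb2, the ephrin that marks arterial endothelium, had 2 and 4 peaks in the innervated and 2 and 2 in the denervated lists and 2 regions in all 4 lists, one of them spliced across 21541 bases of genome at the 5′ end. Its receptor gene Ephb4, which marks venous endothelium, had 1 peak in each list, in the single region chr5:137373581-137373977, with 298 and 397 against 298 and 348 bases. Efna1, a lipid-anchored ephrin, had 2 and 1 against 3 and 2 peaks with 1 region in all 4 lists. Efnb1 had 3 peaks in denervated 1 and none in the other lists, Epha5 3 peaks and Ephb2 1 peak in denervated 2, and Ephb1 2 peaks in innervated 1. Thus 3 of the 5 Eph receptors were called in 1 list each. Efna2, Efna3, Efna4, Efna5 and Efnb3 had no peak, nor did Epha1, Epha2, Epha3, Epha6, Epha7, Epha8, Epha10, Ephb3 and Ephb6.

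Netrin and Slit signalling was represented by few genes. Ntn1, the classical netrin, had 4 and 3 peaks in the innervated and 1 and 3 in the denervated lists, covering 902 and 1151 against 300 and 751 bases. Its region near the 3′ end, chr11:68212507-68213305, was in all 4 lists, whereas the 5′ region was in all lists except denervated 1. The 5′ region spanned 108141 bases of genome through a spliced peak of innervated 2 alone. The peaks of innervated 1 and denervated 2 there were not spliced. Ntn4, a netrin of basement membranes, had 1 peak in innervated 2. None of the 4 UNC5 receptor genes had a peak. Slit3 and Robo4 were each the single member of their family with a peak, out of 3 Slits and 4 Robos, and each had 1 region in all 4 lists. The region of Slit3, a secreted Robo ligand, lay at chr11:35707958-35708457, centred 338 bases before the 3′ end, and that of Robo4, an endothelial Robo, at chr9:37413479-37414023, centred 263 bases before it. Ntn3, Ntn5, Slit1, Slit2, Robo1, Robo2 and Robo3 had no peak.

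Most member peaks lay near the 3′ end. The last 10% of the gene span held 158 of the 215 peaks (73.5%), beside 41.5% of all peaks, and 29 of the 34 genes had a region there. Members were long genes, with a median span of 106537 bases beside 25225 for all genes called, and a given stretch at the end is a smaller share of a long span. In bases, the median member peak was centred 2634 bases before the 3′ end, beside 3044 for all peaks. Within 5000 bases of that end lay 75.8% of member peaks, beside 63.9% of all peaks. Exons and introns were not separated, so place along the transcript was not measured. The median place was 96.1 ± 1.03% in innervated and 96.0 ± 0.516% in denervated lists (SD, n = 2; two-sided exact permutation test, p = 1). The first 10% held 29 peaks (13.5%, beside 7.54% of all peaks), in 10 genes: Sema6a, Plxna2, Plxna4, Nrp2, Efnb1, Efnb2, Epha4, Epha5, Ntn1 and Ntn4. Of the 48 regions in the last 10% 20 were in all 4 lists (41.7%, beside 34.1% of all regions there). Of the 16 in the first 10% 2 were, those of Plxna2 and Efnb2 (12.5%, beside 21.7%). Each region was placed at the mean place of its peaks. The Plxna2 region, at 7.13%, falls in the first 10% only by this mean. Its peaks had their centres at 0.260 to 0.286% or at 12.2 to 12.3%.

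**Figure D4:**
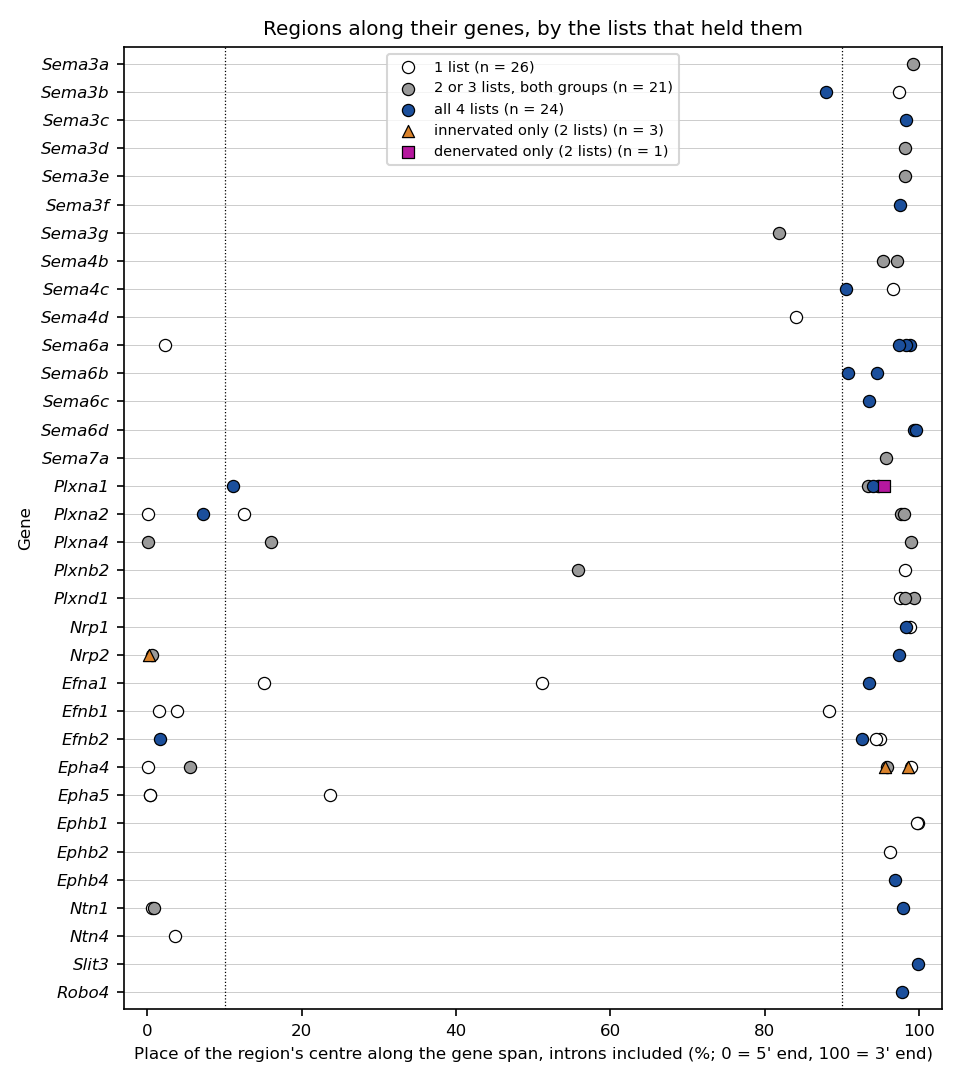
Place of each of the 75 regions along the span of its gene, introns included, from the 5′ end (0%) to the 3′ end (100%). Dotted lines mark 10% and 90%. Each symbol stands at the mean place of the region's peaks and can fall between them, as for Plxna2 at 7.13%. Regions in all 4 lists (dark blue) stand mostly beyond 90%, those in a single list (white) at both ends, the innervated-only regions (triangles) in Nrp2 and Epha4 and the denervated-only region (square) in Plxna1.

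Member peaks ran from 100 to 1799 bases with a median of 298, beside 250 for all peaks. In regions held by 1, 2, 3 and 4 lists the longest peak had a median of 150, 201, 400 and 574 bases, beside 149, 201, 300 and 543 in all regions. A longest peak taken over more lists is longer by construction, and long peaks link more readily. Over all peaks rather than the longest, the medians for members were 150, 176, 348 and 350 bases, beside 149, 196, 201 and 348 for all genes, and linking bears on these too. The longest single peak was that of Sema6a in denervated 2. Spliced peaks numbered 24 of 215 (11.2%, beside 12.6% of all peaks), 10 of them in semaphorins and 8 in plexins.

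Each peak has the authors' own score, which served here to rank the peaks of that list. Ranks are given as percentiles, with 100 for the smallest score. Reading small scores as strong peaks is an assumption taken from their range, which is that of a p-value. The best peak of Robo4 stood at 98.0, 96.8, 97.0 and 88.9 in innervated 1, innervated 2, denervated 1 and denervated 2, high in every list. Among the 19 members in all 4 lists, Nrp1 had the next highest lowest value, with 79.5, 68.3, 81.0 and 71.8. Ephb4 stood at 12.0, 14.4, 39.6 and 13.6, low in every list. Efna1 stood at 85.1, 14.4, 19.0 and 75.6, high and low once in each group. Slit3 stood at 92.7 and 99.7 in the innervated and 74.2 and 25.3 in the denervated lists, and Plxna1 at 64.3 and 59.7 against 47.6 and 15.7. These 2 of the 19 members ranked higher in both innervated than in both denervated lists, beside 17.3% of all genes in all 4 lists, and 1, Sema4c, ranked higher in both denervated lists, beside 16.7%. The innervated-only regions stood at 67.1 and 16.8 in the innervated lists for each of the 2 in Epha4 and at 30.6 and 26.0 for Nrp2. The denervated-only region of Plxna1 stood at 29.9 and 15.7 in the denervated lists. When only the lower 50% of a list's scores were used Plxna1 was innervated only as a gene, although its group-specific region among all peaks was denervated only. Peaks of a gene often had equal scores (in 37 of 59 cases of several peaks in a list, beside 62.0% for all genes), so a rank is not necessarily that of a single region.

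**Figure D5:**
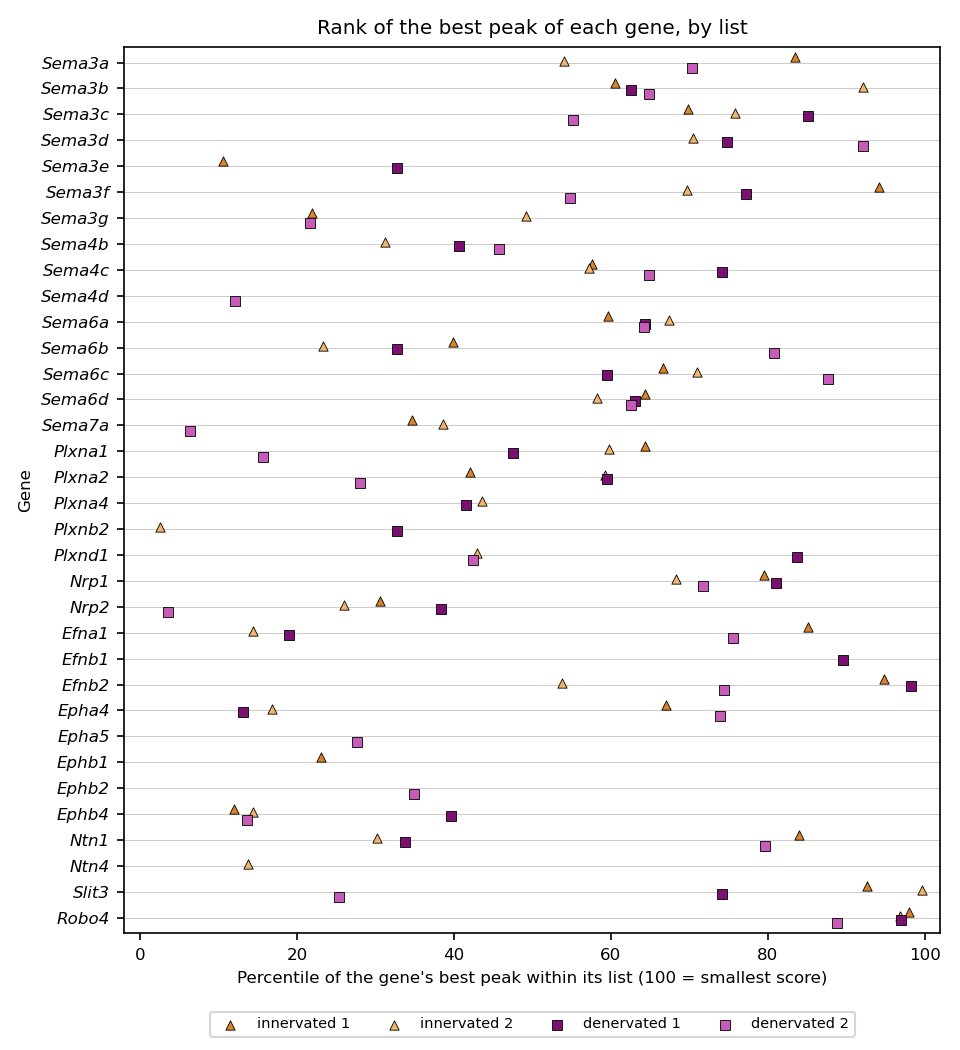
Percentile of the best peak of each gene within its list (100 = smallest score), for the innervated (triangles) and denervated (squares) lists; a missing symbol means no peak. Robo4 stands at 88.9 or above in every list and Ephb4 at 39.6 or below, whereas Slit3 spreads from 25.3 to 99.7.

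Other genes of the same pathways outside the named families were counted from fixed lists. Of 26 further cues, receptors and adhesion co-receptors, 13 had a peak, 5 had one in all 4 lists, 0 were denervated only and 1 was innervated only. The 5 are 38.5% of those with a peak, beside 48.8% of all genes. With 13 genes each call moves this share much, so no difference is read from it. Neo1, a netrin and RGM receptor, had 2 and 2 peaks in the innervated and 1 and 1 in the denervated lists. The RGM ligand genes Rgma, with 3 and 3 against 3 and 4 peaks, and Rgmb, with 1 in each list, were also in all 4, as was Ntng2, a lipid-anchored netrin-G, with 2 and 2 against 1 and 2. The innervated-only gene was Flrt1, of a leucine-rich repeat family whose members bind UNC5 and latrophilin receptors, with 4 and 4 peaks against 0 and 0. Dcc, another netrin receptor, had no peak. Of 49 genes of intracellular guidance signalling, 25 had a peak and 9 had one in all 4 lists. The 9 are 36% of those with a peak, beside the same 48.8%, and no difference is read from this share either. They include Rnd1, a small GTPase that binds plexins, and Nck1, an adaptor. Mical3, of the family of plexin-linked actin oxidases, had 7 and 7 peaks in the innervated and 9 and 9 in the denervated lists. Enah, an actin regulator that acts below Robo in flies and below netrin receptors in worms, was denervated only with 0 and 0 against 4 and 2 peaks. Tiam1, a Rac exchange factor, was innervated only with 4 and 1 against 0 and 0. No more was read from these calls, since 3.42% and 3.14% of all genes with a peak fell in these classes.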

How the data were processed

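The authors deposited 4 peak lists, each of 1 immunoprecipitated library called against its own input and not pooled, on mm10, with gene name, strand and blocks. The value per peak is called score per the file headers; its meaning and the calling software were not given in the sources used here. STAR 2.4.2a and ChIPseeker are named in the submitters' processing notes, and a strand-preserving kit in the labels' protocols. Input libraries entered through these calls alone. No counts were used, so depth is unknown.

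Groups and replicate numbers came from the sample titles. Members were matched by gene name; all 34 were RefSeq symbols (GRCm38.p6). Of 70 matching RefSeq symbols, Plxna4os1 and Unc5cl were set aside, which left 68. Regions, classes and exact permutation tests were computed in Python 3.11.15 with scipy 1.17.1. Linking was tested on simulated data. Alternatives were the 50% smallest or largest scores of each list, equal list lengths, reciprocal overlap of 50%, joining within 100 bases, distance of 500 bases, gene by position, the replicate number as a pair, and leaving out each library. All members could be named; values per list were given by rule for group-specific genes and for the members with the most regions, and for examples from the pathway lists, of which 1 gene is not reported here, and other values were chosen after they were seen. The members and lists were chosen with earlier results of these data known.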

Additional observations from a re-analysis of the deposited data

How the results depend on the processing

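Gene classes rest on 2 lists per group, so that a single call decides a class, and depth is unknown. When only the peaks in the lower 50% of a list's scores were used, member genes in all 4 lists numbered 10. Innervated-only genes numbered 1 and denervated-only genes 0. Regions in all 4, denervated only and innervated only numbered 11, 0 and 1. That innervated-only region was the spliced 5′ region of Plxna1, which all 4 lists held when all peaks were used. None of the group-specific regions reported above remained. With the upper 50% of scores the genes in all 4 lists numbered 5 and the regions 4, 2 and 1. Both denervated-only regions were in Plxna1, the one reported above and the spliced 5′ region. The innervated-only region was that of Nrp2. Using fewer peaks removes calls by construction. Members with more called bases in the innervated or the denervated lists numbered 4 and 0 with the smallest scores and 3 and 2 with the largest. Shares over all genes or regions are not given for the score, overlap, joining and distance settings. No lean to a group is read from their counts. Reciprocal overlap gave 2 denervated-only regions, the second in Sema4b. Requiring no peak of the other group within 500 bases left 0 denervated-only and 1 innervated-only region. With the largest scores the difference (denervated minus innervated) turned to -1 for genes called, 0.0156 percentage points for the share of peaks, -36.2 bases for median length and 0.0112 percentage points for median place. With the smallest scores median length turned to -26.2 bases. No two-sided exact permutation test of 2 against 2 libraries can give a p below 0.333. Leaving out a library in turn gave 0 to 3 denervated-only and 0 to 3 innervated-only genes, 1 to 8 denervated-only and 4 to 11 innervated-only regions, and 8 to 18 and 3 to 8 genes with more called bases in innervated or denervated lists. The same gave 19 to 22 genes and 26 to 30 regions in all remaining lists, and differences of -1 to 3 genes, -6 to 3 peaks, -0.0241 to 0.0142 percentage points, -12.2 to 36.2 bases and -0.821 to 0.639 percentage points of place. Taking the replicate number as a pair (replicate block) left the differences at 1 gene, -1.5 peaks, -0.00492 percentage points of the share, 12 bases and -0.0909 percentage points of place, with exact sign-flip p of 0.5 for the share and 1 for the others; 0.5 is the smallest that 2 pairs allow. The labels do not say that the numbers pair the muscles. Equal list lengths and assignment by position moved no count by more than 1.5 times and turned no difference. The cause of the changes was not tested.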
